A study of Mus musculus with 6 samples.

Results

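Mitochondrial ribosomal protein genes encode the protein subunits of the ribosome that works inside mitochondria. They were taken here as the rows whose symbol starts with Mrpl or Mrps and a number, with pseudogenes left out, which gave 77 of the 39179 listed rows and 76 different symbols. Mrps23 was listed under a pair of identifiers. Mrpl58, a member of the large subunit, was listed under its older name Ict1 and so lay outside the rule, and Mrpl33 was not analysed here. The libraries came from liver tumours raised in wild-type C57BL/6 mice by hydrodynamic injection, a fast high-volume tail vein injection through which hepatocytes take up DNA. The DNA carried transposons with Myc plus either NrasG12V, an activated small GTPase, in the Myc/NrasG12V group, or Akt1, a kinase downstream of insulin and growth factor receptors, in the Myc/Akt1 group. There were 3 libraries in each group. All tumours of both groups had received Myc, and normal liver was not analysed here. Neither the promoters of the transgenes nor the age of the mice is stated in those labels.

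The mitochondrial ribosome translates the few messages that mitochondrial DNA encodes, all of them core subunits of the respiratory chain and the ATP synthase. Its rRNAs are made inside the organelle, whereas its proteins are encoded in the nucleus, translated in the cytoplasm and imported. The large subunit (Mrpl genes) holds the peptidyl transferase centre and the exit tunnel, and the small subunit (Mrps genes) binds the message and decodes it. Many of the proteins have bacterial homologues, and the others are found in mitochondria alone. Liver is rich in mitochondria, and both Myc and growth factor signalling are known to act on mitochondrial biogenesis in other settings. Places of proteins in the ribosome follow mammalian and bacterial ribosome structures and are given as background.

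Promoter letters are shown for 6 members, because the promoters of these scattered genes are known for sites of general mitochondrial gene regulators. They are the 3 members with the largest differences, the only member whose difference was positive, the member with an E-box beside an ETS word, and the member with a pair of NRF1 words. Windows are those of RefSeq on GRCm38.p6, from 250 bases before to 50 bases after an annotated start, 5′ to 3′ on the strand of the gene. Mrpl18 is at chr17:12916042-12916341 (minus strand), Mrps22 at chr9:98601630-98601929 (minus), Mrpl42 at chr10:95501900-95502199 (minus), Mrpl52 at chr14:54426659-54426958 (plus), Mrps18c at chr5:100798509-100798808 (plus) and Mrpl32 at chr13:14612988-14613287 (minus). Capitals mark matches to 4 words searched on both strands: CACGTG (the E-box that Myc and its partner Max bind), CGCATGCG (NRF1), CCGGAAG (ETS factors such as GABP) and AAGATGGC (YY1).
Mrpl18: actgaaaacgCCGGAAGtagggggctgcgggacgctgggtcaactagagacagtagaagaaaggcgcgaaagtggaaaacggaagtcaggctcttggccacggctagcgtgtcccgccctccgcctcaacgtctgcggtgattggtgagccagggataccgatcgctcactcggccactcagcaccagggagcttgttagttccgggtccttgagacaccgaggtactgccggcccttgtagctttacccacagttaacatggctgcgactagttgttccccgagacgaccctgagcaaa
Mrps22: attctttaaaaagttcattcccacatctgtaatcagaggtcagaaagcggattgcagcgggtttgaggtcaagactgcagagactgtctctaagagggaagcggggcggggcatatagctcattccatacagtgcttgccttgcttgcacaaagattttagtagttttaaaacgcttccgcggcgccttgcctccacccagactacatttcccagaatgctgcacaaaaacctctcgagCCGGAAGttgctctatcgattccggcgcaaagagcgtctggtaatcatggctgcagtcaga
Mrpl42: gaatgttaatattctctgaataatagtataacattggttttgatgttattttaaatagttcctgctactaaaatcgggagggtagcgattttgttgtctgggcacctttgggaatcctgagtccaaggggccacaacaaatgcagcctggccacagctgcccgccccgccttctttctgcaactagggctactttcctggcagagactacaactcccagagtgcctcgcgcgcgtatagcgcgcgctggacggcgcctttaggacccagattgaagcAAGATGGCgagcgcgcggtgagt
Mrpl52: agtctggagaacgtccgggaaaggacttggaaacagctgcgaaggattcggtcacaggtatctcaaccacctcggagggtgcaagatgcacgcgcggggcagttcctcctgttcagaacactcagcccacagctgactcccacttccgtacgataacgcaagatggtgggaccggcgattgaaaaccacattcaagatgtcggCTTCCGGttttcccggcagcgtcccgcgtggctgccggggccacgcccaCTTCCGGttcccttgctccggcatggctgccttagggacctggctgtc
Mrps18c: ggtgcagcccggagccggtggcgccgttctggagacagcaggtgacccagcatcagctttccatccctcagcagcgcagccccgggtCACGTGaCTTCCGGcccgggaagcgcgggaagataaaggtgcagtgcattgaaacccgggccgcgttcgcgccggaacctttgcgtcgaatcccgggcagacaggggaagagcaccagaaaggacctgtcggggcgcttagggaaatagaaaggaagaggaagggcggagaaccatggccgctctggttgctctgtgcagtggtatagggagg
Mrpl32: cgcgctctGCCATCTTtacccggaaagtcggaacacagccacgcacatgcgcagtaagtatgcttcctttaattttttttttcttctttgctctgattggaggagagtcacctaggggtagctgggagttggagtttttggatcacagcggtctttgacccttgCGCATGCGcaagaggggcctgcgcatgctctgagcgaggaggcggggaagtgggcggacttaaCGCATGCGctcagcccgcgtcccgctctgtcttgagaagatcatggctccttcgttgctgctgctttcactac

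In these windows, counted from the RefSeq start, the ETS word began 240 bases before the start of Mrpl18 and 11 bases before that of Mrps22. The YY1 word of Mrpl42 began 27 bases after its start. The GENCODE coordinates of Mrpl18 given below begin upstream of its whole window. By those coordinates its ETS word lies inside the gene. Mrpl52 held the ETS word 47 bases before and 2 bases after its start. Mrps18c held the E-box 163 bases before its start, closely followed by an ETS word at 156 bases. Mrpl32 held NRF1 words at 86 and 23 bases and a YY1 word at 242 bases before its start. RefSeq gave 72 windows for 66 of the 75 tested members, several of them overlapping windows of 1 gene. The ETS word was in 31.9% of these windows, against 15.9% of the windows of all tested genes and 8.86% of all windows. For the YY1 word the shares were 16.7%, 4.09% and 2.75%, and for the NRF1 word 9.72%, 3.54% and 1.87%. The E-box, at 9.72%, stood close to the 9.59% of the windows of all tested genes and the 7.15% of all windows, and came from 5 members (Mrpl2, Mrpl20, Mrpl36, Mrpl37 and Mrps18c). No matches of different words overlapped in a member window, and 29 members had none of the 4 words. Windows of members that were higher in Myc/Akt1 numbered 56, and windows of members that did not pass the test 16. The ETS word was in 28.6% of the former and 43.8% of the latter. The other words went the other way, with 17.9% and 12.5% for YY1 and 10.7% and 6.25% for both NRF1 and the E-box. These are shares of windows, not of genes. Mrpl2 brought its E-box in overlapping windows, at 131, 139 and 147 bases before their starts. The 6.25% was 1 window for NRF1 and 1 for the E-box. These differences were not tested. A match is a match of letters and was not tied to binding of a factor.

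The Myc/NrasG12V libraries held 17881282 to 21780251 reads and the Myc/Akt1 libraries 22005319 to 27865094, recovered from the deposited CPM (counts of a gene scaled to a fixed library total). A limit of 3 reads, which a count of 0 allows, was 0.108 to 0.168 CPM, for counting error only. Transcripts of the delivered genes went with the labels: Nras was at 155 to 199.8 CPM in Myc/NrasG12V against 52.1 to 60.9 CPM in Myc/Akt1, and Akt1 was at 52.9 to 87.1 CPM in Myc/NrasG12V against 246 to 314 CPM in Myc/Akt1. Myc was at 121 to 179.5 CPM in Myc/NrasG12V and 111 to 216 CPM in Myc/Akt1, so the groups overlapped. Hepatocyte markers were present in every library, with 157412 to 205854 CPM summed over 15 genes in Myc/NrasG12V and 55062 to 70223 CPM in Myc/Akt1. Nothing in the labels says that samples in a group were from separate mice, and p-values bear only on the spread between the samples. In bulk tumour RNA, fewer cells of a type and less RNA per cell cannot be told apart.

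The mitochondrial ribosomal protein genes were mostly lower in Myc/NrasG12V than in Myc/Akt1. Of the 75 that could be tested, 57 were lower in Myc/NrasG12V at an adjusted p under 0.05 (limma on log2(CPM + 1), Benjamini-Hochberg over 14365 genes), and 0 were higher. In the same test 29.5% of all genes were higher in Myc/Akt1 and 10% were higher in Myc/NrasG12V. At an unadjusted p under 0.05 the counts for the members were 60 lower and 0 higher in Myc/NrasG12V, and this was not counted over all genes. With edgeR on the recovered reads 42 members were lower and 0 higher, against 17.5% and 16.6% of all genes. The median log2 difference of the members, Myc/NrasG12V minus Myc/Akt1, was -0.86, against -0.26 for all tested genes, and 74 of 75 were negative. For 25 of the called members the difference was at least 2-fold on this scale, as for 15.7% of all tested genes, and such members numbered 6 with TMM factors (9.63% of all genes), 5 with upper-quartile factors (9.03%) and 12 with edgeR (11.1%). In 59 members every Myc/NrasG12V library lay below every Myc/Akt1 library, a pattern found for 38.0% of all tested genes, and in 0 members was it the other way round, against 14.8% of all genes. Of the 57 called members, 42 were called in all 6 fits that left out a library, a count not made over all genes.

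The 14365 tested genes as a whole were shifted toward Myc/Akt1 on the CPM scale, and scaling that centres the genes lowered the counts. With TMM factors the median of all genes was 0.0049 in log2 units in place of -0.26, and 39 members were lower in Myc/NrasG12V, against a background of 17.9%. With upper-quartile factors 34 members were lower, against 16.3% of all genes. In both cases 0 members were higher in Myc/NrasG12V, where 16.2% of all genes were with TMM factors and 17.7% with upper-quartile factors. The members' median log2 difference was then -0.55 and -0.50, and 73 and 69 of the 75 were negative.

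**Figure D1:**
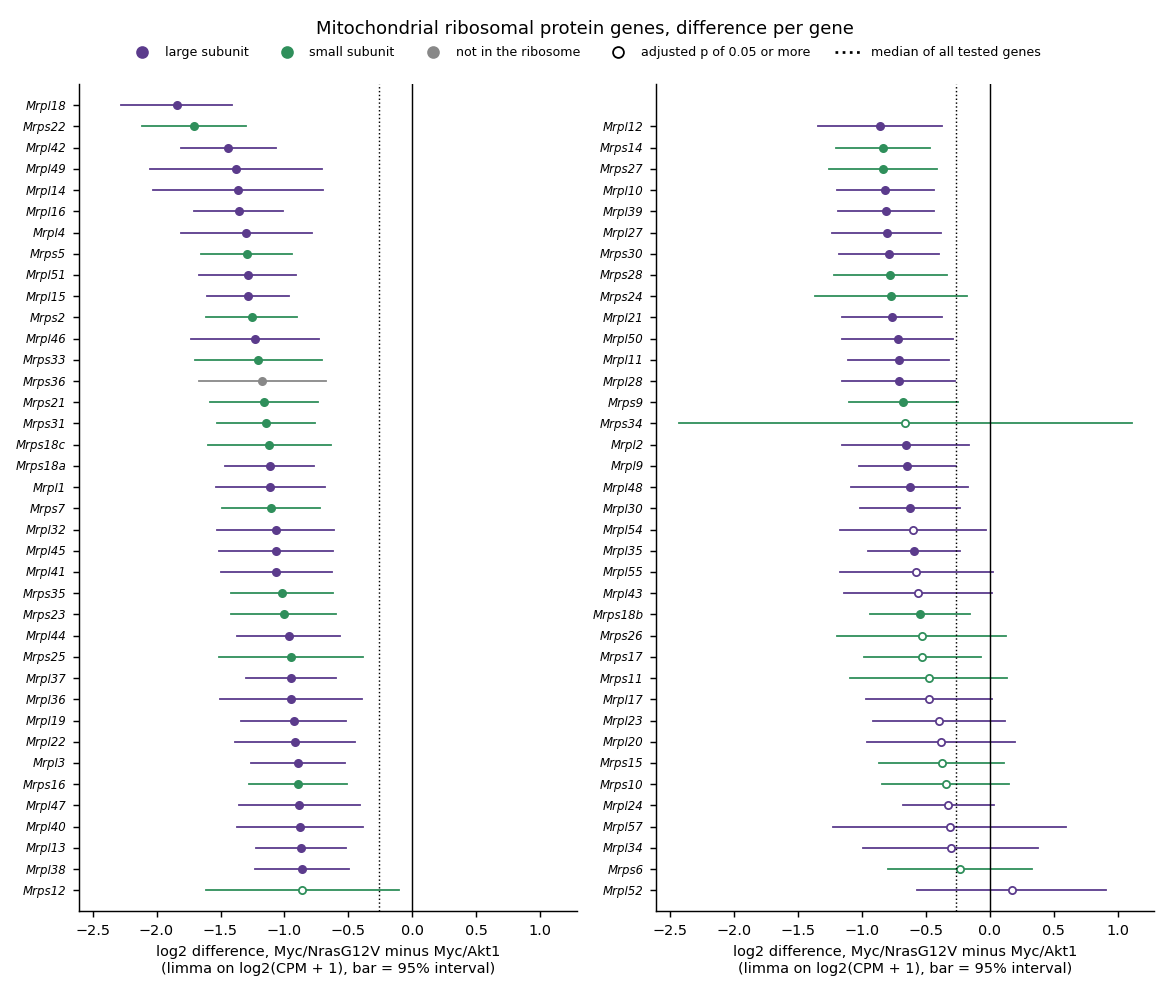
Log2 difference of each tested mitochondrial ribosomal protein gene, Myc/NrasG12V minus Myc/Akt1, with the limma 95% interval as a bar (x axis, log2(CPM + 1) units; genes down the page in order of difference; purple for the large subunit, green for the small subunit, grey for a protein outside the ribosome; open points for an adjusted p of 0.05 or more; dotted line for the median of all tested genes). The points run from -1.84 for Mrpl18 to 0.17 for Mrpl52, and 74 of 75 lie left of 0.

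Summed over all members, these transcripts made up 0.176, 0.187 and 0.211% of the reads in Myc/NrasG12V replicates 1, 2 and 3, against 0.367, 0.317 and 0.380% in Myc/Akt1 replicates 1, 2 and 3. The groups did not overlap, and the mean was 1.85-fold lower in Myc/NrasG12V. Both subunits took part. For the large subunit 38 of 48 tested genes were lower in Myc/NrasG12V, with a median log2 difference of -0.86, and for the small subunit 18 of 26, with a median of -0.85. The ratio of summed large to summed small subunit transcripts was 2.42, 2.53 and 2.38 in Myc/NrasG12V and 2.37, 2.37 and 2.36 in Myc/Akt1. By origin, 33 of 45 genes with bacterial homologues were lower in Myc/NrasG12V, with a median of -0.82, and 23 of 29 mitochondria-specific genes, with a median of -0.95. The share of all tested genes lower in Myc/NrasG12V, for these counts and those by subunit, was 29.5%.

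The largest difference belonged to Mrpl18 (ENSMUSG00000057388, chromosome 17, 12911349 to 12916345, GRCm38), a protein of the central protuberance at the top of the large subunit. It was at 15.9, 21.5 and 20.3 CPM in Myc/NrasG12V, against 80.4, 61.3 and 72.9 CPM in Myc/Akt1. Every Myc/NrasG12V library was thus far below every Myc/Akt1 library, with means of 19.2 ± 2.92 and 71.6 ± 9.61 CPM (SD, n = 3 each), 3.72-fold lower in Myc/NrasG12V. The log2 difference was -1.84 with a standard error of 0.19 and a limma adjusted p of 2.52e-04. With TMM factors it was -1.54, with a limma adjusted p of 7.63e-04. Mrpl46, Mrpl40, Mrpl38 and Mrpl48 belong to the same protuberance and are mitochondria-specific. All 5 were lower in the test, against 29.5% of all tested genes, with a median log2 difference of -0.88. In all 5 the groups did not overlap, as in 38.0% of all tested genes in this direction. With TMM factors 3 of the 5 passed, against 17.9% of all genes. Mrpl40 missed the threshold without Myc/Akt1 replicate 1 (limma adjusted p = 0.0538), and Mrpl48 missed it in 5 of the 6 fits that left out a library, with limma adjusted p-values from 0.0504 to 0.126.

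Among the core proteins next to the peptidyl transferase centre and the tRNAs, Mrpl16 (chromosome 19, 11770391 to 11774960), which contacts the tRNA in the A site, and Mrpl4 (chromosome 9, 21002738 to 21008839), which reaches into the upper exit tunnel, were among the 8 largest differences. Mrpl16 was at 27.4, 27.2 and 28.2 CPM in Myc/NrasG12V and 77.9, 67.0 and 72.5 CPM in Myc/Akt1. Its Myc/NrasG12V values were nearly identical, and the mean was 2.63-fold lower there, with a log2 difference of -1.36 ± 0.15 (SE) and a limma adjusted p of 3.60e-04. Mrpl4 was at 16.1, 14.3 and 25.2 CPM in Myc/NrasG12V and 44.8, 45.4 and 47.2 CPM in Myc/Akt1, a 2.47-fold lower mean in Myc/NrasG12V (limma adjusted p = 0.00258). The other core proteins on the list, Mrpl2, Mrpl3 and Mrpl27, also passed. So 5 of 5 were lower in Myc/NrasG12V, against 29.5% of all tested genes, and 3 of 5 with TMM factors, against 17.9%. Mrpl2, at 27.4 ± 5.99 CPM in Myc/NrasG12V and 43.7 ± 8.74 CPM in Myc/Akt1 (SD, n = 3 each), missed the threshold in 5 of the 6 fits that left out a library, with limma adjusted p-values from 0.0704 to 0.132.

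The factor-binding stalk recruits the elongation factors. It is built from Mrpl12, the mobile protein that touches them, Mrpl10, which anchors Mrpl12, and Mrpl11 at the base. Mrpl12 was at 49.6, 46.1 and 64.8 CPM in Myc/NrasG12V and 90.2, 81.0 and 124 CPM in Myc/Akt1. Mrpl10 was at 32.2, 29.8 and 32.3 CPM in Myc/NrasG12V and 64.9, 52.7 and 51.5 CPM in Myc/Akt1. Mrpl11 was at 21.5, 24.2 and 26.0 CPM in Myc/NrasG12V and 39.2, 36.0 and 44.6 CPM in Myc/Akt1. In none of the 3 did the groups overlap, as in 38.0% of all tested genes in this direction. The folds were close, 1.84, 1.79 and 1.67 times lower in Myc/NrasG12V for Mrpl12, Mrpl10 and Mrpl11. All 3 passed the test, with limma adjusted p-values of 0.0130, 0.00545 and 0.0121, against 29.5% of all tested genes. With TMM factors Mrpl10 alone passed (limma adjusted p = 0.0374), against 17.9% of all genes. With upper-quartile factors 0 of 3 did, against 16.3%.

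**Figure D2:**
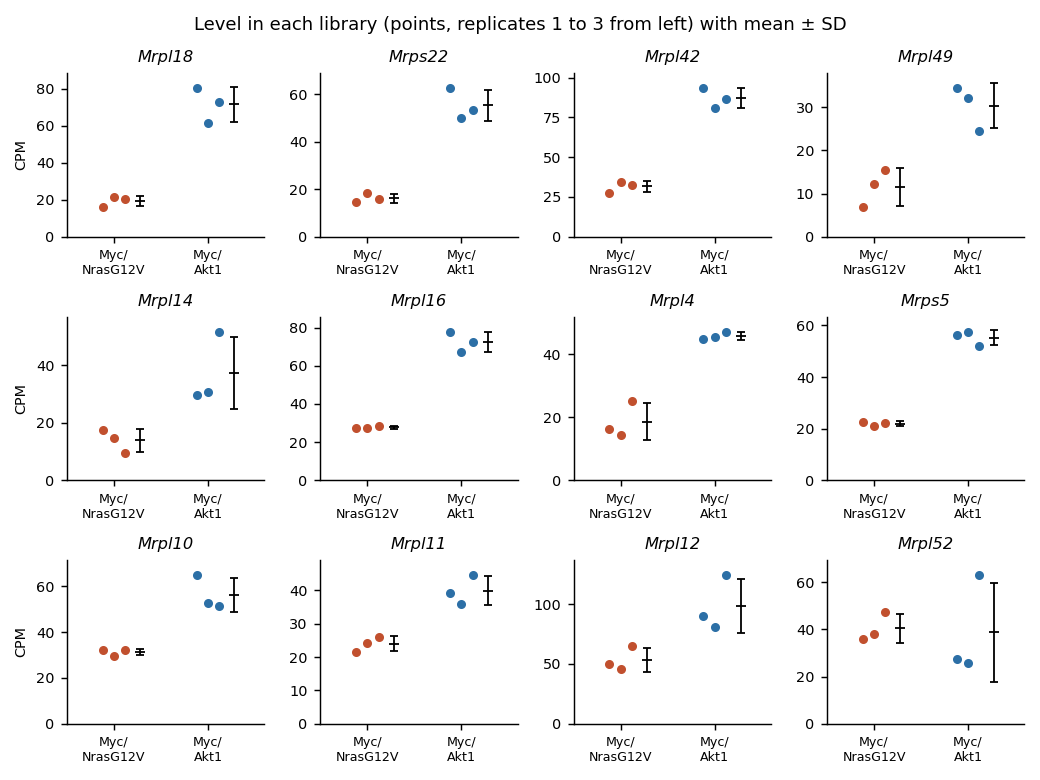
CPM (y axis, from 0) in each library for the 8 members with the largest differences, the 3 stalk proteins and Mrpl52, with Myc/NrasG12V in orange and Myc/Akt1 in blue; points are replicates 1 to 3 from left and the black mark is the mean ± SD (n = 3). In each panel but that of Mrpl52 the groups do not overlap.

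The wall and rim of the peptide exit tunnel were mixed. Mrpl45, which holds the ribosome to the inner membrane, was at 24.0, 28.7 and 28.6 CPM in Myc/NrasG12V and 71.8, 55.7 and 48.1 CPM in Myc/Akt1, 2.16-fold lower in Myc/NrasG12V (limma adjusted p = 0.00335). Mrpl22 and Mrpl47 also passed, with log2 differences of -0.92 and -0.88 and limma adjusted p-values of 0.00833 and 0.0103. Mrpl47 missed the threshold without Myc/Akt1 replicate 1 (limma adjusted p = 0.0567) and with TMM factors (limma adjusted p = 0.0510). The other members of the panel did not pass. Mrpl17 averaged 62.1 ± 3.15 CPM in Myc/NrasG12V and 88.9 ± 24.7 CPM in Myc/Akt1 (SD, n = 3 each; limma adjusted p = 0.111), and passed without Myc/Akt1 replicate 2 (limma adjusted p = 0.0393). Mrpl23 averaged 4.61 ± 0.57 CPM in Myc/NrasG12V and 6.43 ± 1.20 CPM in Myc/Akt1 (SD, n = 3 each; limma adjusted p = 0.198). Mrpl24 was at 40.7, 45.8 and 42.2 CPM in Myc/NrasG12V and 58.1, 49.8 and 53.9 CPM in Myc/Akt1, without overlap but at a limma adjusted p of 0.131, and its log2 difference of -0.32 became 0.040 with upper-quartile factors. In all, 3 of 6 tunnel proteins were lower in Myc/NrasG12V, against 29.5% of all tested genes, with a median log2 difference of -0.68. With TMM factors 2 of 6 were lower, against 17.9% of all genes. Panels this small were not tested against these shares.

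Other large subunit proteins with large differences were Mrpl42 and Mrpl49, both mitochondria-specific, and Mrpl14, which sits on the face that meets the small subunit and is the docking place of the assembly factor Malsu1. Mrpl42 (chromosome 10, 95480805 to 95501940) was at 27.7, 34.2 and 32.7 CPM in Myc/NrasG12V and 93.4, 81.0 and 86.4 CPM in Myc/Akt1, 2.76-fold lower in Myc/NrasG12V with a log2 difference of -1.44 ± 0.16 (SE; limma adjusted p = 3.58e-04). Mrpl49 (chromosome 19, 6053622 to 6057785) was at 6.83, 12.2 and 15.5 CPM in Myc/NrasG12V and 34.5, 32.2 and 24.4 CPM in Myc/Akt1. Mrpl14 (chromosome 17, 45686322 to 45698495) was at 17.4, 14.6 and 9.45 CPM in Myc/NrasG12V and 29.7, 30.6 and 51.6 CPM in Myc/Akt1. The replicates of Mrpl49 and Mrpl14 were more spread than those of Mrpl42, though the groups stayed apart, and both passed with limma adjusted p-values of 0.00681 and 0.00674. Mrpl15, a protein of the large subunit interior, showed very tight replicates, at 51.4, 50.6 and 50.7 CPM in Myc/NrasG12V and 125, 122 and 129 CPM in Myc/Akt1, 2.46-fold lower in Myc/NrasG12V.

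In the small subunit the largest difference was that of Mrps22 (ENSMUSG00000032459, chromosome 9, 98588730 to 98601660), a mitochondria-specific protein whose mutations in human patients impair the respiratory chain. It was at 14.5, 18.3 and 15.9 CPM in Myc/NrasG12V and 62.7, 50.03 and 53.5 CPM in Myc/Akt1. The groups were far apart, the mean was 3.41-fold lower in Myc/NrasG12V, and the log2 difference was -1.71 ± 0.18 (SE; limma adjusted p = 2.79e-04). Mrps5 (chromosome 2, 127587222 to 127606829), which lines the channel through which the message enters, was at 22.7, 20.8 and 22.1 CPM in Myc/NrasG12V and 56.2, 57.6 and 51.9 CPM in Myc/Akt1, 2.52-fold lower in Myc/NrasG12V (limma adjusted p = 4.96e-04). Mrps2, next to the exit of that channel, was at 39.1 ± 2.24 CPM in Myc/NrasG12V and 95.05 ± 8.89 CPM in Myc/Akt1 (SD, n = 3 each).

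In the head of the small subunit, Mrps7, Mrps9 and Mrps14 were lower in Myc/NrasG12V and Mrps10 did not pass. That made 3 of 4, against 29.5% of all tested genes, with a median log2 difference of -0.76. Mrps7, which contacts the tRNA leaving the ribosome, was at 39.0, 45.7 and 48.8 CPM in Myc/NrasG12V and 107, 86.0 and 97.9 CPM in Myc/Akt1. Mrps9 missed the threshold in 5 of the 6 fits that left out a library, with limma adjusted p-values from 0.0510 to 0.0759. On the platform, where the E site lies, Mrps21 and Mrps18c passed and Mrps11 and Mrps6 did not. Mrps21 was at 12.6, 12.1 and 15.3 CPM in Myc/NrasG12V and 32.8, 28.7 and 31.5 CPM in Myc/Akt1, without overlap (limma adjusted p = 0.00172). Mrps6 was at 9.69, 10.01 and 15.8 CPM in Myc/NrasG12V and 16.2, 12.6 and 12.7 CPM in Myc/Akt1. These groups overlapped (log2 difference -0.23, limma adjusted p = 0.486), and the sign turned to 0.060 with TMM factors. Mrps12, the protein of the decoding centre, was at 11.8, 12.8 and 11.6 CPM in Myc/NrasG12V and 16.5, 17.3 and 40.9 CPM in Myc/Akt1. All its Myc/NrasG12V libraries were lower, and Myc/Akt1 replicate 3 lay far above the other two. It did not pass (log2 difference -0.86, limma adjusted p = 0.0678), nor did it without Myc/Akt1 replicate 3 (log2 difference -0.45, limma adjusted p = 0.116) or under any of the other alternatives.

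Mrps11 shares its locus with a large subunit gene. Mrpl46 (chromosome 7, 78775236 to 78783531, minus strand) and Mrps11 (chromosome 7, 78783119 to 78792989, plus strand) start next to each other and overlap at their ends. Mrpl46 was at 12.2, 12.3 and 13.4 CPM in Myc/NrasG12V and 35.3, 23.2 and 36.4 CPM in Myc/Akt1, and Mrps11 at 8.26, 8.49 and 13.9 CPM in Myc/NrasG12V and 16.8, 10.9 and 15.6 CPM in Myc/Akt1. Mrpl46 was 2.50-fold lower in Myc/NrasG12V (limma adjusted p = 0.00293), whereas Mrps11 overlapped between groups (log2 difference -0.48, limma adjusted p = 0.192). Without Myc/NrasG12V replicate 3, Mrps11 passed at a log2 difference of -0.70 (limma adjusted p = 0.0440). The difference between the neighbours was not tested. Members were spread over 17 chromosomes, each of which held at least 1 called member.

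Some names mislead about the place of the protein. Mrps30 and Mrps18a were named for the small subunit but lie in the large one. Mrps30 was at 29.7, 31.8 and 34.7 CPM in Myc/NrasG12V and 61.8, 47.8 and 58.9 CPM in Myc/Akt1, and Mrps18a at 24.1, 23.9 and 25.1 CPM in Myc/NrasG12V and 55.2, 51.8 and 55.0 CPM in Myc/Akt1. Both were lower in Myc/NrasG12V, with limma adjusted p-values of 0.00743 and 8.58e-04, though Mrps30 missed the threshold with upper-quartile factors (limma adjusted p = 0.0757). The paralogues of Mrps18a in the small subunit, Mrps18c and Mrps18b, had log2 differences of -1.12 and -0.55 beside its -1.12. Mrps18b averaged 20.2 ± 2.09 CPM in Myc/NrasG12V and 29.8 ± 0.42 CPM in Myc/Akt1 (SD, n = 3 each), and missed the threshold in 5 of the 6 fits that left out a library, with limma adjusted p-values from 0.0613 to 0.103. Mrps36 is no ribosomal protein but a subunit of the 2-oxoglutarate dehydrogenase complex of the citric acid cycle. It was at 1.24, 1.15 and 0.78 CPM in Myc/NrasG12V and 2.93, 3.59 and 4.45 CPM in Myc/Akt1, 3.46-fold lower in Myc/NrasG12V (limma adjusted p = 0.00352).

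Per kilobase of annotated exon, mean levels over the 6 libraries ran from 1.12 CPM for Mrps34 to 49.6 CPM for Mrpl12 among the tested members, with a median of 14.9 and the middle of the genes between 8.06 and 22.9 CPM per kilobase. Mrpl50, a mitochondria-specific protein, was the next highest with 43.9 CPM per kilobase. On the same scale the tested nuclear respiratory chain genes had a median of 67.4 CPM per kilobase, the cytoplasmic ribosomal protein genes 179 and the mitoribosome assembly factors 4.30. Mrpl50 was at 61.1, 79.3 and 68.5 CPM in Myc/NrasG12V and 135, 120 and 93.3 CPM in Myc/Akt1, not overlapping (log2 difference -0.72, limma adjusted p = 0.0167). It missed the threshold without Myc/NrasG12V replicate 1, Myc/Akt1 replicate 1 or Myc/Akt1 replicate 2, with limma adjusted p-values from 0.0610 to 0.0763, and with TMM factors (limma adjusted p = 0.131).

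**Figure D3:**
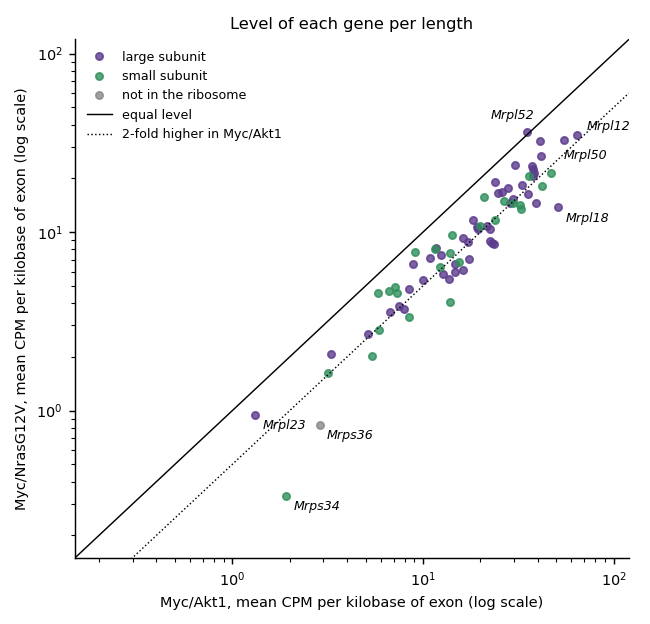
Mean CPM per kilobase of exon of each tested member in Myc/NrasG12V (y axis, log scale) against Myc/Akt1 (x axis, log scale), by place in the ribosome, with the line of equal levels and the line of a level 2-fold higher in Myc/Akt1. Most points lie below the line of equal levels. Mrps36 lies below the lower line, Mrpl12 lies between the lines, and Mrpl52 lies near the line of equal levels.

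The 18 tested members that did not pass included those with the least even Myc/Akt1 libraries. Mrpl52, a mitochondria-specific large subunit protein and the only member with a positive difference on the CPM scale, was at 35.9, 38.2 and 47.4 CPM in Myc/NrasG12V and 27.6, 25.8 and 63.0 CPM in Myc/Akt1 (log2 difference 0.17, limma adjusted p = 0.707). Myc/Akt1 replicate 3 lay above all other libraries and the other two Myc/Akt1 libraries lay below them, so the groups overlapped. Mrpl57 also had its highest value in Myc/Akt1 replicate 3, with 16.9, 14.0 and 27.5 CPM in Myc/NrasG12V and 15.5, 18.5 and 44.9 CPM in Myc/Akt1 (limma adjusted p = 0.565). Mrps34 was at 0.573, 0.643 and 0.839 CPM in Myc/NrasG12V and 0.212, 0.251 and 11.4 CPM in Myc/Akt1. Without Myc/Akt1 replicate 3 its log2 difference was 0.45 (limma adjusted p = 0.0918), against -0.66 with all libraries (limma adjusted p = 0.531). Annotated exons of Mrps34 overlap those of Nme3 and Mapk8ip3 over 77.8% of their length. Mrpl20, Mrpl43, Mrpl54, Mrps11, Mrps17 and Mrps26 did not pass with all libraries and passed without Myc/NrasG12V replicate 3.

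Exons of 31 of the 76 annotated members overlap another gene in GENCODE M21, in 27 of them on the opposite strand, and for these the values are uncertain where reads could be split or dropped. The overlap exceeded 50% of the exon length for Mrpl53, Mrps34 and Mrps25. Mrpl53 had 0 reads in all 6 libraries, and 88.0% of its exon length is shared with Gm42688, so that its level is unknown. The second identifier of Mrps23 also had 0 reads, whereas the identifier that was tested had 20.1, 21.1 and 27.1 CPM in Myc/NrasG12V and 50.1, 44.9 and 44.1 CPM in Myc/Akt1.

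Within groups the libraries were not evenly ranked. In Myc/NrasG12V, replicate 3 was the highest for 50 of the 75 tested members (66.7%, against 51.7% of all tested genes), and replicate 1 was the lowest for 45 (60.0%, against 33.8%). In Myc/Akt1, replicate 2 was the lowest for 53 (70.7%, against 32.2%), and replicates 1 and 3 were each the highest for 37 (49.3%, against 31.5% and 37.3%). The spread was small all the same. The median coefficient of variation of the members was 11.1% in Myc/NrasG12V and 13.2% in Myc/Akt1, beside 18.8% and 14.99% for 6555 tested genes of like level. Myc/NrasG12V replicate 3 also had the highest summed erythroid markers (1872 CPM, against 303 and 1073 CPM in replicates 1 and 2) and neutrophil markers (213 CPM, against 34.1 and 74.1 CPM). Its macrophage markers were the lowest of the group (342 CPM, against 540 and 353 CPM). So were its B cell, stellate cell and fibroblast, cholangiocyte and progenitor, and hepatocyte markers. T and NK cell markers were highest in replicate 1 (36.0 CPM, against 15.4 and 16.0 CPM in replicates 2 and 3). Without Myc/NrasG12V replicate 3, 62 members were lower in Myc/NrasG12V, against 33.4% of all tested genes. This was the highest count with a library left out, and the lowest was 45, without Myc/NrasG12V replicate 1 (22.3% of all tested genes) or without Myc/Akt1 replicate 1 (20.1%).

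Ribosomal proteins that are not named Mrpl or Mrps went the same way in part. Ptcd3, a small subunit protein that helps to take up the message, was at 57.4, 48.7 and 38.9 CPM in Myc/NrasG12V and 157, 136 and 88.3 CPM in Myc/Akt1 (log2 difference -1.36, limma adjusted p = 0.00314). Chchd1, also of the small subunit, averaged 20.9 ± 4.53 CPM in Myc/NrasG12V and 44.4 ± 3.25 CPM in Myc/Akt1 (SD, n = 3 each; limma adjusted p = 0.00343). Aurkaip1 passed at a log2 difference of -0.57 (limma adjusted p = 0.0261) but not with TMM factors (limma adjusted p = 0.259), nor in 4 of the 6 fits that left out a library, with limma adjusted p-values from 0.0599 to 0.0731. So 3 of 5 were lower in Myc/NrasG12V (60%, against 29.5% of all tested genes), with a median of -0.57. With TMM factors 2 of 5 were lower (40%, against 17.9% of all genes).

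Of 26 mitoribosome assembly factors, 13 were lower (50%, against 29.5% of all tested genes) and 0 higher (against 10%) in Myc/NrasG12V. Their median log2 difference was -0.70, and 9 were lower with TMM factors (34.6%, against 17.9% of all genes). The GTPases Noa1 and Gtpbp10 and the rRNA methyltransferase Mettl15 had the lowest adjusted p-values. Noa1 was at 6.92, 9.37 and 8.33 CPM in Myc/NrasG12V and 29.95, 34.0 and 30.4 CPM in Myc/Akt1, 3.83-fold lower in Myc/NrasG12V (limma adjusted p = 3.01e-04). Gtpbp10 was 2.45-fold lower and Mettl15 3.25-fold lower in Myc/NrasG12V (limma adjusted p-values of 0.00125 and 0.00160). Of 17 translation factors, 13 were lower (76.5%, against 29.5% of all tested genes) and 0 higher (against 10%) in Myc/NrasG12V. Their median was -1.02, and 8 were lower with TMM factors (47.1%, against 17.9% of all genes). Gfm1, the elongation factor that moves the tRNAs, was at 39.1, 37.4 and 37.6 CPM in Myc/NrasG12V and 179.7, 160.3 and 101 CPM in Myc/Akt1 (log2 difference -1.88, limma adjusted p = 4.65e-04). Gatb and Gatc, subunits of the amidotransferase that makes glutaminyl-tRNA, were 4.24-fold and 2.37-fold lower in Myc/NrasG12V (limma adjusted p-values of 8.44e-04 and 0.00180).

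For mitochondrial transcription and RNA processing, 11 of 26 genes were lower (42.3%, against 29.5% of all tested genes) and 0 higher in Myc/NrasG12V. Their median log2 difference was -0.63. With TMM factors 9 were lower and 2, Polg and Fastk, were higher. The helicase Supv3l1, the transcription elongation factor Tefm and the tRNA processing enzyme Elac2 led the list, with folds of 2.67, 2.69 and 2.11 lower in Myc/NrasG12V (limma adjusted p-values of 6.48e-04, 8.47e-04 and 0.00135). Among 10 regulators of mitochondrial biogenesis 2 were lower (20%, against 29.5% of all tested genes) and 0 higher in Myc/NrasG12V. Gabpa, the DNA-binding subunit of GABP, averaged 33.7 ± 1.58 CPM in Myc/NrasG12V and 70.7 ± 5.38 CPM in Myc/Akt1 (SD, n = 3 each; limma adjusted p = 0.00121). The coactivator Ppargc1b was at 2.51 ± 0.32 CPM in Myc/NrasG12V and 5.83 ± 0.88 CPM in Myc/Akt1 (SD, n = 3 each; limma adjusted p = 0.00883). The related coactivator Pprc1 had a positive log2 difference of 0.58 (limma adjusted p = 0.0634), which passed with TMM factors (limma adjusted p = 0.0144) and without Myc/Akt1 replicate 3 (limma adjusted p = 0.0273).

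Of the mitochondrial ribosome's own rRNAs, mt-Rnr2 was lower in Myc/NrasG12V and mt-Rnr1 did not pass, and the difference between them was not tested. The large subunit rRNA mt-Rnr2 was at 454, 641 and 338 CPM in Myc/NrasG12V and 1206, 2107 and 647 CPM in Myc/Akt1 (log2 difference -1.35, limma adjusted p = 0.0326). It missed the threshold with TMM factors (limma adjusted p = 0.108) and in 4 of the 6 fits that left out a library, with limma adjusted p-values from 0.0704 to 0.0995. The small subunit rRNA mt-Rnr1 was at 284, 318 and 167 CPM in Myc/NrasG12V and 208, 159 and 252 CPM in Myc/Akt1, overlapping (log2 difference 0.28, limma adjusted p = 0.449). Both were read from poly(A) libraries, which capture these rRNAs incompletely. Of the 13 messages that mitochondrial ribosomes translate, 7 could be tested and the other 6 were listed at or near 0 reads. Of the 7, 6 were lower in Myc/NrasG12V (85.7%, against 29.5% of all tested genes), with a median log2 difference of -1.71. With TMM factors 5 were lower (71.4%, against 17.9% of all genes).

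**Figure D4:**
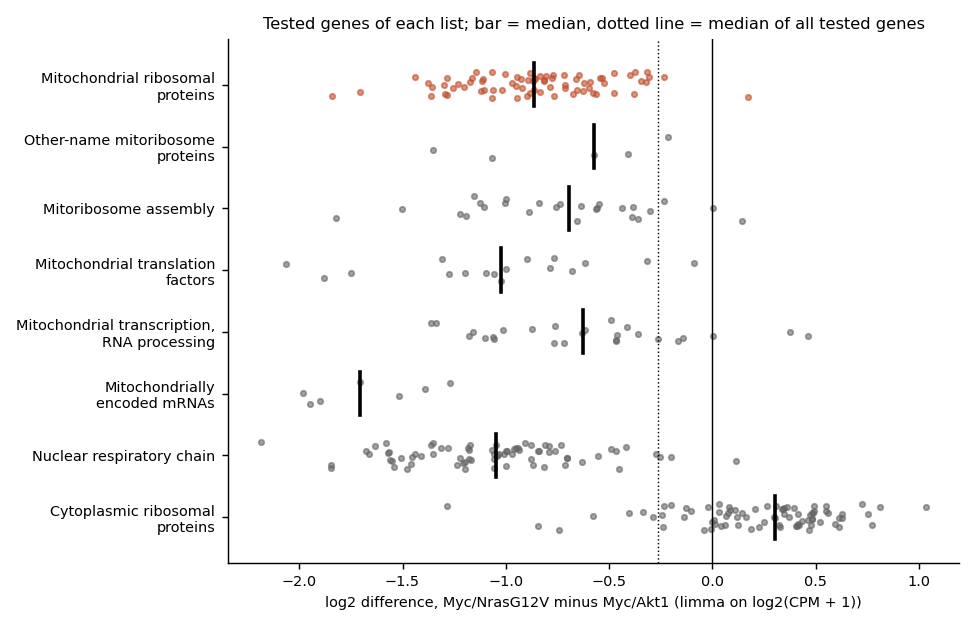
Log2 difference, Myc/NrasG12V minus Myc/Akt1 (x axis, limma on log2(CPM + 1)), of each tested gene (points) in the mitochondrial ribosomal protein genes (orange) and 7 further lists (grey), with list medians as black bars and the median of all tested genes as a dotted line. The members' median is -0.86, that of the nuclear respiratory chain -1.05 and that of the cytoplasmic ribosomal proteins 0.30.

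The nuclear genes for the complexes that mitochondrial translation feeds were lower as well. Of 75 tested nuclear genes of the respiratory chain and ATP synthase, 64 were lower (85.3%, against 29.5% of all tested genes) and 0 higher (against 10%) in Myc/NrasG12V. Their median log2 difference was -1.05, and 49 were lower with TMM factors (65.3%, against 17.9% of all genes). The ratio of summed member transcripts to summed nuclear respiratory chain transcripts needs no scaling between libraries. It was 26.3, 26.8 and 28.2% in Myc/NrasG12V and 23.1, 21.2 and 21.1% in Myc/Akt1, higher in every Myc/NrasG12V library. The ratio of mitochondrially encoded messages to member transcripts was 11.2, 14.7 and 18.6 in Myc/NrasG12V and 24.4, 26.5 and 19.8 in Myc/Akt1, lower in every Myc/NrasG12V library.

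The cytoplasmic ribosomal protein genes, whose ribosomes make the imported proteins, gave other values. Of 80 tested, 6 were higher in Myc/NrasG12V (7.5%, against 10% of all tested genes) and 3 lower (3.75%, against 29.5%). The median log2 difference was 0.30, and with TMM factors 36 were higher (45%, against 16.2% of all genes) and 0 lower. Summed mitochondrial ribosomal protein transcripts amounted to 5.68, 5.83 and 5.25% of summed cytoplasmic ones in Myc/NrasG12V, against 13.7, 12.2 and 11.6% in Myc/Akt1. The mean of this ratio was 2.24-fold lower in Myc/NrasG12V, and the groups did not overlap. With 3 against 3 samples an exact two-sided permutation test of a single value cannot give a p below 0.1.

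**Figure D5:**
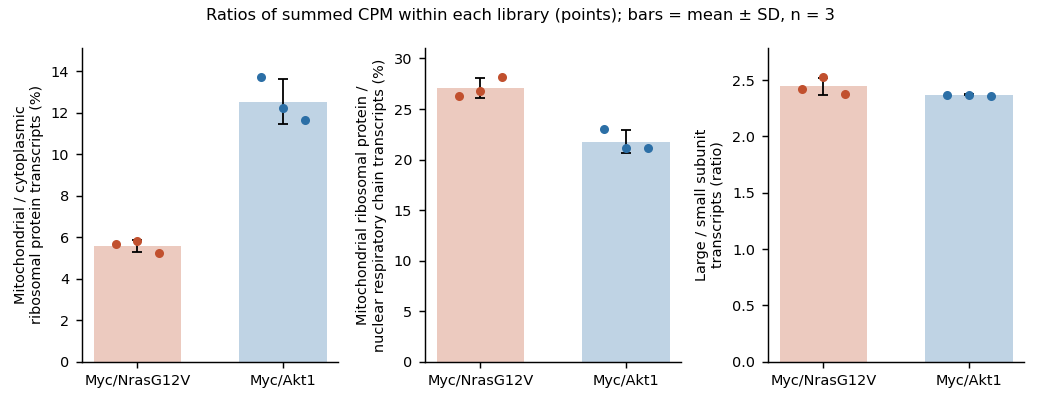
Ratios of summed CPM within each library (y axes, from 0) of mitochondrial to cytoplasmic ribosomal protein transcripts in percent, of mitochondrial ribosomal protein to nuclear respiratory chain transcripts in percent, and of large to small subunit transcripts, with Myc/NrasG12V in orange left of Myc/Akt1 in blue; points are libraries, bars the mean ± SD (n = 3). The mean of the ratio to cytoplasmic ribosomal protein transcripts was 5.59% in Myc/NrasG12V and 12.5% in Myc/Akt1.

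Some other properties of the libraries moved with the groups. All 20 cell cycle genes tested were lower in Myc/NrasG12V, with a median log2 difference of -3.16 and summed levels of 121 to 203 CPM in Myc/NrasG12V against 896 to 1601 CPM in Myc/Akt1. Among markers of blood cells, 7 of 9 erythroid genes (303 to 1872 CPM summed in Myc/NrasG12V, 50.9 to 105 CPM in Myc/Akt1) and 8 of 10 neutrophil genes (34.1 to 213 CPM in Myc/NrasG12V, 3.73 to 4.88 CPM in Myc/Akt1) were higher in Myc/NrasG12V. For macrophages 3 of 10 markers were higher in Myc/NrasG12V (342 to 540 CPM in Myc/NrasG12V, 238 to 307 CPM in Myc/Akt1), and for T and NK cells 5 of 9 were higher and 1 lower (15.4 to 36.0 CPM in Myc/NrasG12V, 6.79 to 9.12 CPM in Myc/Akt1). Of the cholangiocyte and progenitor markers 3 of 8 were higher in Myc/NrasG12V (536 to 1050 CPM there, 144 to 277 CPM in Myc/Akt1). Summed endothelial markers overlapped between groups (160 to 265 CPM in Myc/NrasG12V, 189 to 237 CPM in Myc/Akt1). Of these, 3 of 8 were higher and 1 lower. Stellate cell and fibroblast markers overlapped as well (524 to 633 against 386 to 624 CPM), with 2 of 10 higher. B cell markers also overlapped (1.79 to 4.44 against 2.00 to 2.80 CPM), with 0 of the 2 tested higher. Over all tested genes 10% were higher and 29.5% lower in Myc/NrasG12V. The hepatocyte list held 5 genes that were higher and 3 that were lower in Myc/NrasG12V among 15. Mitochondrially encoded genes and the 10 most abundant genes together took 22.5 to 24.6% of the reads in Myc/NrasG12V and 14.1 to 14.4% in Myc/Akt1. Mitochondrially encoded messages alone went the other way, with 19729 to 39328 CPM summed in Myc/NrasG12V and 75269 to 89440 CPM in Myc/Akt1. With the mitochondrially encoded and the 10 most abundant genes left out of the library total, 48 members were lower in Myc/NrasG12V, against 22.5% of all tested genes. The part of proliferation, of cell mixture and of library composition in the members' difference was not tested.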

How the data were processed

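Poly(A) RNA of 6 liver tumour samples was sequenced as stranded single-end libraries, per the labels' protocols. The authors deposited 1 CPM value per gene and library (each file sums to the same total). The submitters' processing notes list GRCm38 with edgeR 3.22.5, Subread 1.6.3 and STAR 2.6.1c. Which annotation release, strand setting and rule for multi-mapped reads were used in counting is not given in the sources used here. A read that fits overlapping genes may have been dropped or assigned to either. Divided by its smallest step, every deposited CPM value came within 0.01 of a whole number, and these whole numbers were taken as the read counts. A common factor per library would not alter this, and only the equal file totals bear on whether one was applied.

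Genes that passed filterByExpr (14365) were compared with limma 3.58.1 in R 4.3.3 (trended variance, two-sided) on log2(CPM + 1), as the Myc/NrasG12V mean less the Myc/Akt1 mean, with Benjamini-Hochberg adjustment over all of them and a threshold of 0.05. Fold values are ratios of mean CPM, and log2 differences carry the pseudocount, which understates changes of low genes. Alternatives were upper-quartile, median-of-ratios and TMM factors, a library total without mitochondrially encoded and top 10 genes, other filters and pseudocounts, no trend, edgeR 4.0.16 and DESeq2 1.42.0 on the recovered reads, a block for the replicate number, and fits without 1 library in turn. Simulated data with known changes were used to test the scripts. Coordinates, exon lengths and overlaps came from GENCODE M21 on GRCm38, which matched 37607 of 39179 identifiers.

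The members and lists were chosen with earlier results of these data known. Genes named in full were the 8 called members with the largest difference and a mean of at least 1 CPM, the panels for stalk, exit tunnel, decoding centre and platform, the 2 highest and 2 lowest members per kilobase, Mrps30, Mrps18a and Mrps36, the 3 genes of lowest adjusted p of 5 related lists, and both mitochondrial rRNAs. Other members, such as Mrpl15, Mrpl52, Mrpl57 and Mrps2, were named after their values were seen. Replicate pairs of a group differed far beyond counting noise (chi-square per degree of freedom from 30.8 to 152), so none was counted as a duplicate.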

Additional observations from a re-analysis of the deposited data

How the results depend on the processing

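Members lower in Myc/NrasG12V numbered 57 with all settings as reported, 39 with TMM, 38 with median-of-ratios and 34 with upper-quartile factors, 48 with the reduced library total, 42 with edgeR and 44 with DESeq2, and 0 members were higher in Myc/NrasG12V under each of these. Leaving out a library gave 45 to 62. Of the 57, 34 were called under all 18 alternatives, a count not made over all genes. The members' median log2 difference was -0.55 with TMM and with median-of-ratios factors, -0.50 with upper-quartile factors, -0.70 with the reduced total, -0.58 with edgeR and -0.57 with DESeq2. Over all tested genes the counts as reported were 1437 toward Myc/NrasG12V and 4240 toward Myc/Akt1. These counts were 2331 and 2565 with TMM, 2366 and 2515 with median-of-ratios, 2544 and 2343 with upper-quartile factors, 2381 and 2512 with edgeR, and 2752 and 2791 with DESeq2. The other scalings centre the genes by construction. Under them some signs turned: the log2 difference of Mrps6 was 0.060 with TMM and 0.064 with median-of-ratios factors, 0.11 with upper-quartile factors and 0.076 with edgeR and 0.079 with DESeq2, and with upper-quartile factors those of Mrpl24, Mrpl34, Mrpl57 and Mrps10 were 0.040, 0.042, 0.038 and 0.017, so that 6 members were positive and 69 negative. Without single libraries Mrps34 ranged from -1.23 to 0.45. Replicate numbers were shared between groups in the labels, but deviations of same-numbered libraries correlated at only -0.08, 0.11 and 0.08, so the numbers were not taken as pairs, and the fit with the replicate block called 58 members. Filters, pseudocounts and the trend changed no direction among the named genes. Counts were low for Mrps34, with 5 reads in its lowest library and 250 in its highest, and for Mrps36, with 14 in its lowest. Each other tested member had at least 58 reads in every library. Having 3 libraries a group limits all p-values.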
